A study of Mus musculus with 28 samples.

Results

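The class I antigen presentation genes described here are B2m, H2-K1, H2-D1, Psmb8, Psmb9, Psmb10, Tap1, Tap2, Tapbp and Nlrc5. They were taken by symbol from a table of 17342 genes, which held all 10, and all 10 passed the filter on low values. The RNA-seq libraries came from mouse embryonic stem cells (ESCs) of the male V6.5 line, a mix of the 129 and C57BL/6 strains, grown in serum with LIF, the cytokine that keeps ESCs undifferentiated. The groups were Tet2-WT (3 independent ESC lines or cultures with wild-type Tet2), Tet2-Mut (2 clones labelled Tet2 mutant, a change that the labels do not specify) and Tet2-KO (2 clones labelled Tet2 knockout). Tet2 oxidizes methylated cytosine in DNA, and the series asks about its roles outside catalysis. Before RNA extraction the cells of all 3 groups were held on a feeder layer, pre-plated to take the feeders out, and kept on gelatin overnight. Each altered genotype rests on 2 clones.

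MHC class I molecules show fragments of the cell's own proteins at its surface. The proteasome cuts proteins into peptides, the TAP transporter carries the peptides into the endoplasmic reticulum, tapasin holds the empty molecule next to the transporter, and the finished complex of heavy chain, beta-2-microglobulin and peptide moves to the surface, where cytotoxic T cells and natural killer cells read it. Interferons raise most genes of this pathway in many cell types, among them 3 alternative proteasome subunits that replace their constitutive counterparts. Pluripotent stem cells are known for low class I levels.

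The sequences upstream of these genes are shown first, since B2m and both classical heavy chains share a promoter layout. RefSeq promoter windows of build GRCm38.p6 (mm10) were matched for 8 of the 10 members, all but Tap2 and Nlrc5. B2m, H2-K1 and H2-D1 each held TGACG followed by ATTGG (the reverse complement of CCAAT) with 25 bases from the first base of one to the first base of the other, counted on the strand of the gene. The bases between them differed. The 3 stretches run 5′ to 3′ with both motifs in capitals, from chr2:122147609-122147638 on the plus strand for B2m, chr17:34000359-34000388 on the minus strand for H2-K1 and chr17:35262993-35263022 on the plus strand for H2-D1.
B2m: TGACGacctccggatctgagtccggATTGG
H2-K1: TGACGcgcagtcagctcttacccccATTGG
H2-D1: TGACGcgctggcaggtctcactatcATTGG
The same 2 motifs at the same distance were found in 18 of 32851 RefSeq promoter windows (0.0548%), which belong to 15 genes and include the class I gene H2-M3. H2-M3 RNA had means of 67.5 normalized counts in Tet2-WT, 75.0 in Tet2-Mut and 67.7 in Tet2-KO, and its log2 difference between Tet2-KO and Tet2-WT was 0.05 (limma adjusted p = 0.955). Whether the layout bears on the RNA levels was not tested. The distance of 25 was chosen after the matches in these members had been seen, so the share is a description.

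The whole 250 bases upstream are given for B2m and H2-D1, whose RNA was higher in Tet2-KO, and for Psmb8, which lies between Tap1 and Tap2. The 225 bases between the starts of Psmb9 and Tap1, which are transcribed away from each other, are given because both genes start at its ends. Capitals mark matches, on either strand, to GAAANNGAA (a form of the interferon regulatory factor core), TTCNNNGAA (STAT), GGGNNTTCC and GGGNNTTTC (NF-kappa B), CCAAT and TGACG. The windows are chr2:122147437-122147686 for B2m, chr17:35262844-35263093 for H2-D1, chr17:34197945-34198194 for Psmb8 and chr17:34187331-34187555 for the interval, all written on the plus strand.
B2m: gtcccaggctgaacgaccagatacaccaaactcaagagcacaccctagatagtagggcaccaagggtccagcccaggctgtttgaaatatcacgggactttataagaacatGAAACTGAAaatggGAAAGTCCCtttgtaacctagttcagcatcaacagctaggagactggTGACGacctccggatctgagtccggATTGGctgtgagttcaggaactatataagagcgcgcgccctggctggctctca
H2-D1: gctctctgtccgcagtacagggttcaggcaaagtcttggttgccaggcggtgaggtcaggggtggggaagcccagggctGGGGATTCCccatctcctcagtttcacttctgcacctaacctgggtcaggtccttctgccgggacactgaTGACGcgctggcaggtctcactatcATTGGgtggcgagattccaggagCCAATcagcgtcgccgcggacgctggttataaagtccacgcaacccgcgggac
Psmb8: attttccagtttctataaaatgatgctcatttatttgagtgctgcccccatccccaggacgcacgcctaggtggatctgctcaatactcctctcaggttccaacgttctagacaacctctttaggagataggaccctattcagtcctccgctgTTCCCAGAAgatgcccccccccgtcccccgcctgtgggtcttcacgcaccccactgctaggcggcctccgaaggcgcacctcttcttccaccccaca
Psmb9-Tap1 interval: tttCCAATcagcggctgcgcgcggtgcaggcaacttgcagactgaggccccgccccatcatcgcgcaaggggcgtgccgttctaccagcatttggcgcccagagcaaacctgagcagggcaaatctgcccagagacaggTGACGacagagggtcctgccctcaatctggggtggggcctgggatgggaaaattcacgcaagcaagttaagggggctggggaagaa
Among RefSeq windows of the 250 bases before a start, the length given above for B2m, H2-D1 and Psmb8, GAAANNGAA occurred in 7.13% and, of the 8 members, in B2m. TTCNNNGAA occurred in 7.02% and in Psmb8. GGGNNTTCC occurred in 4.98% and in H2-K1 and H2-D1, and GGGNNTTTC in 3.72% and in B2m. CCAAT occurred in 33.8% of windows and in 6 of the 8 members, and TGACG in 17.8% and in 5 of the 8. A match is a run of letters in these windows and was not tested for binding.

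The libraries held 41.9 M to 58.5 M reads assigned to genes, and the values are normalized counts, meaning reads divided by a size factor of the library. Tet2 itself, the check of the labels, stood at 10343, 10244 and 12074 normalized counts in Tet2-WT, 9992 and 13181 in Tet2-Mut, and 4624 and 5206 in Tet2-KO. The fall in Tet2-KO was 1.15 on the log2 scale (SE 0.12, limma adjusted p = 0.00522), so transcript remained. The Tet2-WT libraries differed less among themselves (chi-square divided by its degrees of freedom, 7.14 to 13.2) than did the pair of Tet2-Mut clones (44.14) or of Tet2-KO clones (33.44), and the p-values use 1 spread for all groups. The ESC markers Pou5f1 and Nanog had at least 52319 and 18677 normalized counts in every library, and Nanog was lower in Tet2-Mut than in Tet2-WT (-0.37, limma adjusted p = 0.0457).

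In Tet2-KO, transcripts of the class I heavy chains, of beta-2-microglobulin and of 1 transporter subunit were higher than in Tet2-WT. B2m was 2.36-fold, H2-K1 1.60-fold, H2-D1 1.95-fold and Tap2 2.72-fold as high, on the scale of normalized count plus 1. These 4 of the 10 members passed an adjusted p of 0.05 upward and 0 passed downward, where 5.91% of all 17338 genes tested passed in either direction. The median log2 fold change of the 10 members was 0.67, against a median of 0.00 over all genes. In Tet2-Mut the only member that passed was Tapbp, which was lower (1 of 10, against 3.43% of all genes), and the members' median was 0.00 beside 0.01 over all genes. Between the altered genotypes, 6 of 10 members were higher in Tet2-KO than in Tet2-Mut and 0 were lower (6.19% of all genes passed), with a median of 0.77 beside 0.00. The 3 comparisons share libraries in pairs, so their counts are not independent of each other.

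**Figure D1:**
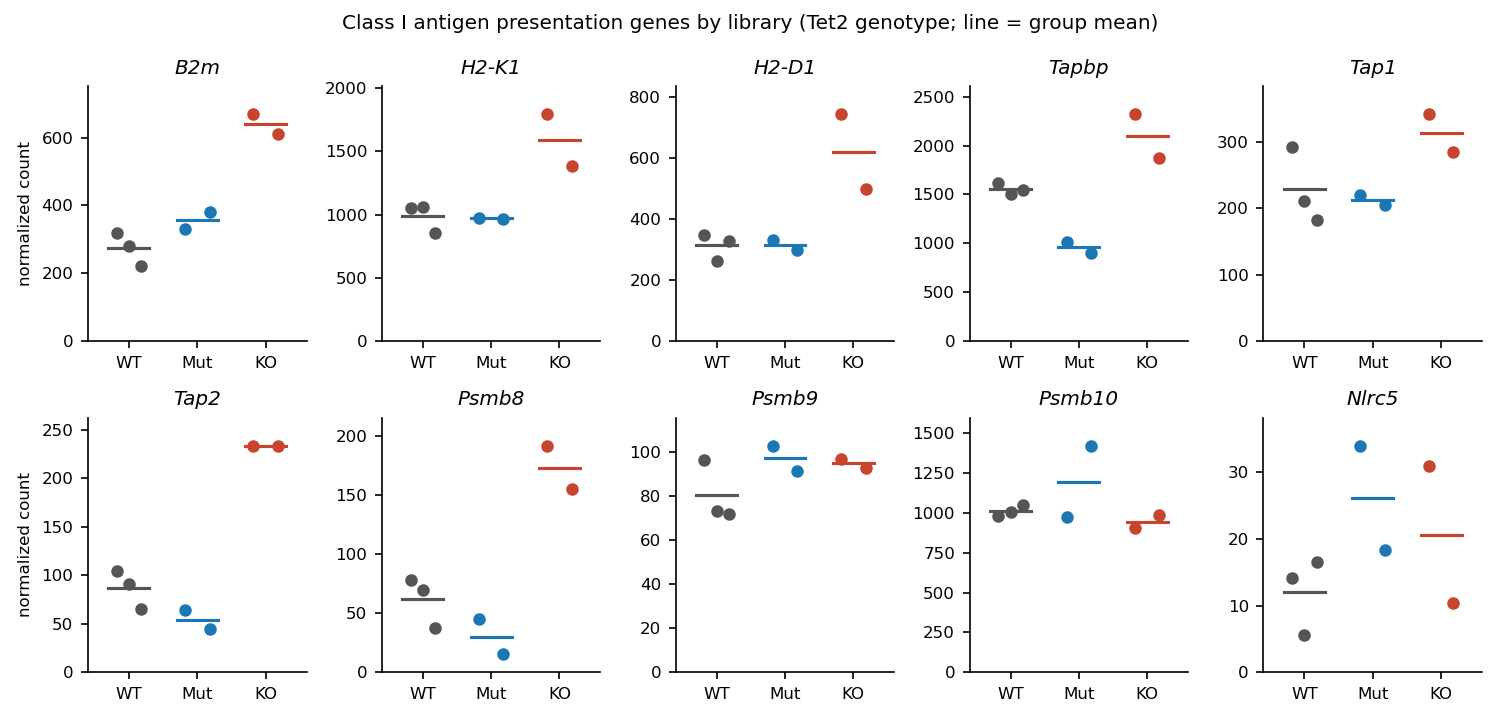
Normalized count (vertical axis, from 0, a separate scale for each gene) of the 10 class I antigen presentation genes in each RNA-seq library, grouped as Tet2-WT (3 points), Tet2-Mut (2) and Tet2-KO (2); the line is the group mean. For B2m, H2-K1, H2-D1, Tapbp, Tap2 and Psmb8 both Tet2-KO points lie above all other points, while the groups overlap for Psmb9 and Psmb10. The share of all genes with both Tet2-KO points on top is not given here, so this describes the plot alone.

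B2m encodes beta-2-microglobulin, the small subunit that every class I heavy chain needs to fold and reach the surface. The gene lies at chr2:122147687-122153082 (mm10). It had 319.6, 280.5 and 221.9 normalized counts in the Tet2-WT libraries, 331.6 and 380.1 in Tet2-Mut, and 668.8 and 612.1 in Tet2-KO. The 3 groups did not overlap, with Tet2-WT lowest and Tet2-KO highest. The group means were 274.0 ± 49.2 (SD, n = 3), 355.8 ± 34.3 (n = 2) and 640.5 ± 40.1 (n = 2). By limma, B2m rose by 1.24 on the log2 scale in Tet2-KO against Tet2-WT (SE 0.18, adjusted p = 0.00991), and Tet2-KO exceeded Tet2-Mut by 0.85 (SE 0.20, adjusted p = 0.0375). The difference of Tet2-Mut from Tet2-WT, 0.39 (95% interval -0.02 to 0.79, adjusted p = 0.253), did not pass. B2m lies within the span of Patl2, and no source used here gives the strand setting of the counting, so reads of the overlap could go to either gene. Patl2 ranged from 113.5 to 302.1 normalized counts and was lowest in Tet2-KO replicate 1, where B2m was highest.

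H2-K1 and H2-D1 encode the classical class I heavy chains, which form the peptide groove. H2-K1 (chr17:33996012-34000619) had 1055, 1059 and 854.5 normalized counts in Tet2-WT, 971.1 and 968.6 in Tet2-Mut, and 1794 and 1385 in Tet2-KO. H2-D1 (chr17:35263094-35267497) had 348.7, 263.6 and 328.1, then 331.6 and 298.1, then 744.2 and 497.3. For both genes the Tet2-WT and Tet2-Mut libraries overlapped and both Tet2-KO libraries were higher, replicate 1 more than replicate 2. H2-K1 rose by 0.68 on the log2 scale in Tet2-KO against Tet2-WT (SE 0.14, limma adjusted p = 0.0275) and by 0.70 against Tet2-Mut (SE 0.15, adjusted p = 0.0305). H2-D1 rose by 0.96 (SE 0.20, adjusted p = 0.0295) and by 0.95 (SE 0.22, adjusted p = 0.0391). The Tet2-Mut differences from Tet2-WT were -0.02 for H2-K1 (95% interval -0.34 to 0.29) and 0.01 for H2-D1 (-0.44 to 0.47). These genes are similar in sequence to each other and to other H2 genes, so the split of reads among them is uncertain.

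The calls of these 3 genes in Tet2-KO against Tet2-WT depended on single libraries. B2m lost its call without Tet2-WT replicate 2 or Tet2-KO replicate 1, with fold changes of 1.09 to 1.36 and adjusted p of up to 0.0765 over the 7 libraries left out in turn. H2-K1 and H2-D1 lost theirs without any of the 3 Tet2-WT libraries or without Tet2-KO replicate 1 (0.49 to 0.86 with adjusted p of up to 0.189, and 0.67 to 1.25 with up to 0.197). Against Tet2-Mut, B2m was called in 1, H2-K1 in 3 and H2-D1 in 2 of the 7 (adjusted p of up to 0.152, 0.146 and 0.18). In every one of these fits the difference stayed positive.

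Tapbp encodes tapasin, the bridge between the empty class I molecule and the peptide transporter. Its level was lowest in Tet2-Mut and highest in Tet2-KO. Tapbp (chr17:33919478-33929290) had 1616, 1510 and 1550 normalized counts in Tet2-WT, 1017 and 900.1 in Tet2-Mut, and 2321 and 1874 in Tet2-KO, with no overlap between any 2 groups. In Tet2-Mut it fell by 0.70 on the log2 scale from Tet2-WT (SE 0.11, limma adjusted p = 0.0227), to 0.614 of the Tet2-WT level. Tet2-KO exceeded Tet2-Mut by 1.12 (SE 0.12, adjusted p = 0.00382). The difference of Tet2-KO from Tet2-WT was 0.42 (95% interval 0.17 to 0.67, adjusted p = 0.0598) and missed the threshold, which it passed with edgeR and with DESeq2 on the recovered reads. The difference between Tet2-KO and Tet2-Mut was called without each of the 7 libraries in turn (0.97 to 1.28). The fall in Tet2-Mut was not called without Tet2-WT replicate 1, 2 or 3 or Tet2-Mut replicate 2 (-0.79 to -0.61, adjusted p of up to 0.134). The start of Tapbp overlaps Gm19412, which had 16.4 to 35.8 normalized counts.

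Tap1 and Tap2 encode the subunits of the TAP peptide transporter. Tap2 (chr17:34204479-34216321) had 104.0, 91.3 and 64.9 normalized counts in Tet2-WT, 63.8 and 44.4 in Tet2-Mut, and 233.3 and 232.6 in Tet2-KO. No 2 groups overlapped, although the lowest Tet2-WT library (64.9) and the higher Tet2-Mut library (63.8) were nearly level. Tap2 rose by 1.44 on the log2 scale in Tet2-KO against Tet2-WT (SE 0.29, limma adjusted p = 0.0252) and by 2.11 against Tet2-Mut (SE 0.31, adjusted p = 0.00684). The second difference was called without each of the 7 libraries in turn (1.85 to 2.37). The first was called in 2 of these 7 fits, those without Tet2-Mut replicate 1 or 2, and stayed between 1.25 and 1.58 (adjusted p of up to 0.146). Tap1 (chr17:34187556-34197225) had 292.9, 210.9 and 182.9 in Tet2-WT, 220.4 and 204.5 in Tet2-Mut, and 341.6 and 284.3 in Tet2-KO. One Tet2-WT library lay between the Tet2-KO clones. Its differences of 0.47 from Tet2-WT (95% interval -0.03 to 0.97, adjusted p = 0.243) and 0.55 from Tet2-Mut (0.00 to 1.10, adjusted p = 0.246) did not pass, so 1 of the transporter's 2 subunits passed the test.

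Psmb8, Psmb9 and Psmb10 encode the catalytic subunits of the immunoproteasome, which take the places of Psmb5, Psmb6 and Psmb7. The 3 genes had different patterns. Psmb8 (chr17:34198195-34201454) had 78.2, 69.7 and 37.8 normalized counts in Tet2-WT, 45.3 and 15.4 in Tet2-Mut, and 192.0 and 155.1 in Tet2-KO. Its Tet2-KO libraries lay above all others, and Tet2-Mut replicate 2 was the lowest library. Tet2-KO exceeded Tet2-Mut by 2.65 on the log2 scale (SE 0.53, limma adjusted p = 0.0209), the widest difference of any member in any comparison. The difference from Tet2-WT was 1.53 (95% interval 0.44 to 2.62, adjusted p = 0.097) and did not pass, and that of Tet2-Mut from Tet2-WT was -1.12 (-2.21 to -0.04, adjusted p = 0.225). Psmb8 rested on 16 to 186 reads per library. Its call against Tet2-Mut was lost without Tet2-WT replicate 2, Tet2-Mut replicate 2 or either Tet2-KO library (1.91 to 3.40, adjusted p of up to 0.108).

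Psmb9 (chr17:34182030-34187330) showed no such spread. It had 96.5, 73.4 and 72.0 normalized counts in Tet2-WT, 103.0 and 91.6 in Tet2-Mut, and 97.0 and 93.0 in Tet2-KO, and the groups overlapped in all 3 comparisons. Its difference of Tet2-KO from Tet2-WT was 0.25 (95% interval -0.32 to 0.82, adjusted p = 0.617) and that from Tet2-Mut was -0.03 (-0.66 to 0.59). Psmb10 (chr8:105935728-105938392) had 977.8, 1002 and 1046 in Tet2-WT, 972.1 and 1419 in Tet2-Mut, and 906.2 and 983.2 in Tet2-KO. Tet2-Mut replicate 2 stood apart from the other 6 libraries. Its differences were -0.09 for Tet2-KO (-0.43 to 0.24, adjusted p = 0.767), 0.22 for Tet2-Mut (-0.12 to 0.56, adjusted p = 0.445) and -0.32 between the altered genotypes (-0.69 to 0.06, adjusted p = 0.327).

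The ratio of each immunoproteasome subunit to its constitutive partner was set relative to its Tet2-WT mean on the log2 scale, which removes gene length. The ratio of Psmb8 to Psmb5 was 0.47, 0.21 and -0.67 in Tet2-WT, -0.38 and -2.72 in Tet2-Mut, and 1.83 and 1.33 in Tet2-KO. Both Tet2-KO clones were above the Tet2-WT range, and 1 Tet2-Mut clone was below it. Psmb5 itself was 10510 normalized counts in Tet2-Mut replicate 2 and 5585 to 6359 in the other 6 libraries, so both genes contribute to the lowest ratio. The ratio of Psmb9 to Psmb6 was 0.33 and 0.11 in Tet2-KO and 0.26 and 0.08 in Tet2-Mut, against -0.16 to 0.28 in Tet2-WT. The ratio of Psmb10 to Psmb7 was -0.15 and -0.11 in Tet2-KO and -0.15 and 0.31 in Tet2-Mut. These ratios were not tested.

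Nlrc5 encodes a transactivator known to act on class I genes through the X and Y boxes of their promoters. It was the lowest member in reads, with 6 to 33 per library, and its values were 14.1, 5.65 and 16.5 normalized counts in Tet2-WT, 34.0 and 18.3 in Tet2-Mut, and 31.0 and 10.3 in Tet2-KO. Tet2-Mut lay above Tet2-WT without overlap, while 1 Tet2-KO clone was within the Tet2-WT range and the other above it. Its log2 difference from Tet2-WT was 0.66 in Tet2-KO (95% interval -0.83 to 2.14, limma adjusted p = 0.608) and 1.11 in Tet2-Mut (-0.38 to 2.59, adjusted p = 0.372). With these reads no change of Nlrc5 passed the test, and the intervals are wide.

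**Figure D2:**
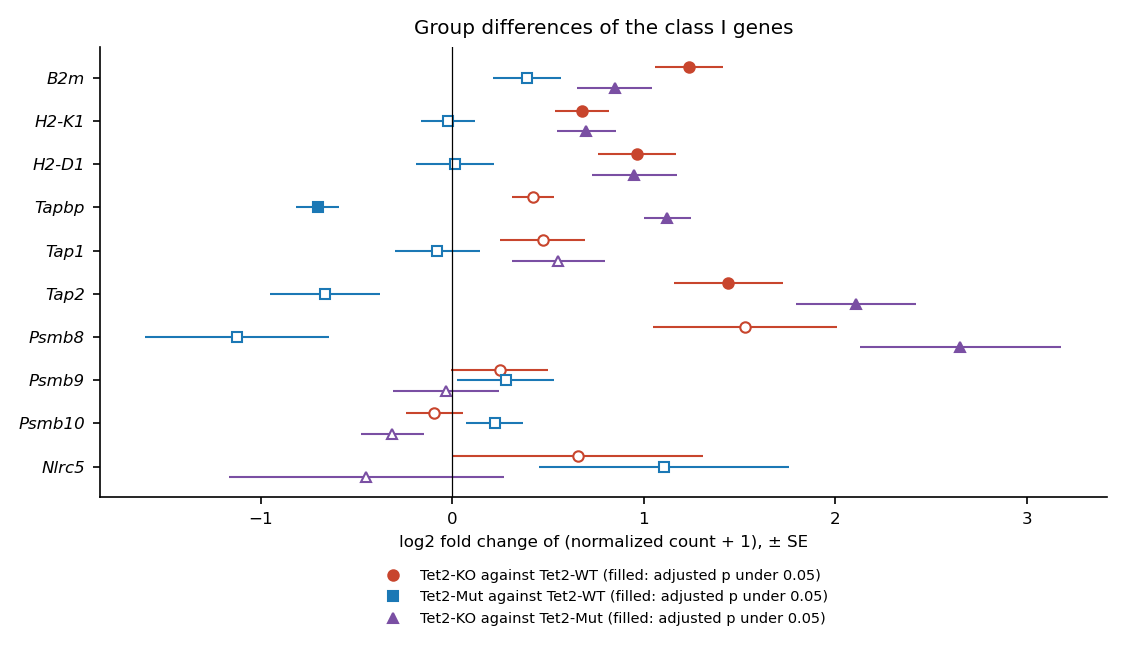
Log2 fold change of normalized count plus 1 (horizontal axis, bars are ± 1 SE) of the 10 genes in the 3 comparisons; filled symbols have a limma adjusted p under 0.05. Tet2-KO against Tet2-WT is filled for 4 genes, Tet2-Mut against Tet2-WT for Tapbp alone at -0.70, and Tet2-KO against Tet2-Mut for 6 genes, up to 2.65 for Psmb8.

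Of the members, 7 lie on chromosome 17, where Psmb9, Tap1, Psmb8 and Tap2 follow each other within 34.3 kb. Within that cluster the difference of Tet2-KO from Tet2-WT was 0.25, 0.47, 1.53 and 1.44 in this order. The stretch of 33 tested genes from Rps28 to H2-Eb1 holds 6 members and 27 other genes. By limma, 0 of those 27 passed in each of the 3 comparisons (4, 3 and 1 at an unadjusted p under 0.05; 0 by edgeR, and by DESeq2 0 but for 2 in Tet2-Mut against Tet2-WT). Their medians were 0.09 for Tet2-KO against Tet2-WT, 0.07 for Tet2-Mut against Tet2-WT and -0.01 for Tet2-KO against Tet2-Mut. On each side of Tapbp, Gm19412 differed by 0.09 (adjusted p = 0.934) and Rgl2 by 0.03 (adjusted p = 0.869) in Tet2-KO against Tet2-WT. Beside H2-K1, AA388235 differed by 0.34 and Ring1 by 0.07. Beside H2-D1, Mir8094 differed by 0.06 and Gm8741 by 1.05. Next to Psmb9 and Tap2, the class II genes H2-DMb1 and H2-Ab1 differed by 0.28 and -0.50, and none of these 6 passed (adjusted p of at least 0.517). In Tet2-Mut against Tet2-WT, H2-Ab1 differed by -1.92 (limma adjusted p = 0.0693), further than Psmb8 (-1.12) and Tap2 (-0.67), and none of these passed. H2-Ab1 was 1.42 higher in Tet2-KO than in Tet2-Mut (adjusted p = 0.177). The medians of all 841 other tested genes of chromosome 17 were 0.01, -0.03 and 0.03 in the 3 comparisons, and those of the 1278 other genes of chromosome 2, where B2m lies, were 0.01, -0.01 and 0.03.

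**Figure D3:**
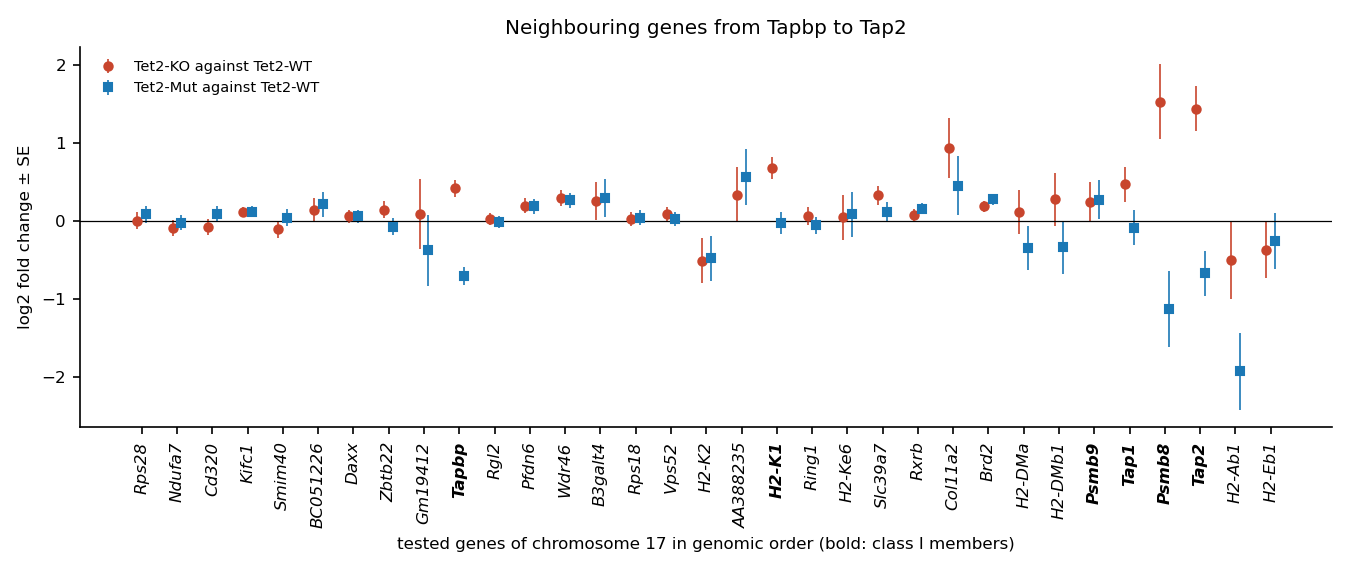
Log2 fold change against Tet2-WT (vertical axis, bars are ± 1 SE) of the 33 tested genes from Rps28 to H2-Eb1 on chromosome 17, in genomic order with even spacing; circles are Tet2-KO, squares Tet2-Mut, and the 6 class I members are in bold. Psmb8 and Tap2 stand at 1.53 and 1.44 in Tet2-KO and at -1.12 and -0.67 in Tet2-Mut. Of these values only that of Tap2 in Tet2-KO has a limma adjusted p under 0.05. The 27 other genes have medians of 0.09 and 0.07, and among them H2-Ab1 stands at -1.92 in Tet2-Mut (limma adjusted p = 0.0693).

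Psmb10 and Nlrc5 lie on chromosome 8, whose other genes had medians away from 0. The 859 other tested genes there had a median of -0.26 in Tet2-KO against Tet2-WT (11 higher and 140 lower), 0.27 in Tet2-Mut against Tet2-WT (136 higher and 6 lower) and -0.52 in Tet2-KO against Tet2-Mut (3 higher and 396 lower). The median per library was 0.29 and 0.27 in the Tet2-Mut clones and -0.28 and -0.24 in the Tet2-KO clones, so both clones of each genotype moved. Psmb10 minus that median was 0.17, -0.05 and 0.21 in the 3 comparisons, and Nlrc5 minus that median was 0.92, 0.83 and 0.07. The signs of the Psmb10 differences were those of the chromosome in all 3 comparisons. The part of the chromosome in the values of these genes was not tested.

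**Figure D4:**
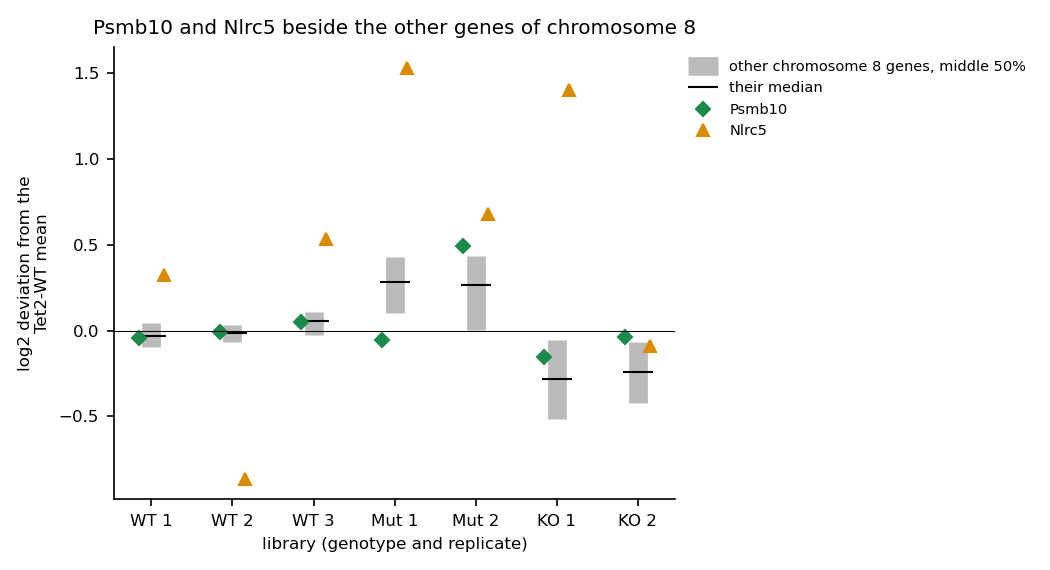
Log2 deviation from the Tet2-WT mean (vertical axis) in each library for Psmb10 (diamonds), Nlrc5 (triangles) and the 859 other tested genes of chromosome 8 (grey box, the middle 50%; black line, their median). The median of the chromosome is 0.29 and 0.27 in the Tet2-Mut clones and -0.28 and -0.24 in the Tet2-KO clones, and Nlrc5 varies from -0.86 to 1.53.

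Most other genes of the class I pathway did not pass the test. Of 17 tested genes for peptide trimming, loading and quality control, 1 was higher in Tet2-KO than in Tet2-WT and 0 were lower, with a median of 0.08. The one gene was Erap1, the aminopeptidase that trims peptides in the endoplasmic reticulum, with 215.5, 253.2 and 207.7 normalized counts in Tet2-WT, 232.7 and 137.0 in Tet2-Mut, and 644.1 and 422.9 in Tet2-KO (1.21, SE 0.26, limma adjusted p = 0.0327). Its call was lost without any 1 of the Tet2-WT libraries or Tet2-KO replicate 1 (0.91 to 1.52, adjusted p of up to 0.224). Against Tet2-Mut, Erap1 (1.54, adjusted p = 0.0166) and the proteasome activator Psme2 (0.65, adjusted p = 0.00904) were higher in Tet2-KO and the chaperone calreticulin, Calr, was lower (-0.47, adjusted p = 0.0138). Calr lies on chromosome 8, whose median was -0.52 in that comparison. Erap1 lost this call without Tet2-KO replicate 1 (adjusted p = 0.0958) and Calr without Tet2-KO replicate 2 (adjusted p = 0.0527), while Psme2 was called without each of the 7 libraries in turn. By limma, edgeR and DESeq2, 0 of the 17 passed in Tet2-Mut against Tet2-WT, and 3 had an unadjusted limma p under 0.05.

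Among 17 non-classical and MHC-like heavy chains, 0 were higher in Tet2-KO than in Tet2-WT by limma and 1 was lower, Fcgrt, the neonatal Fc receptor chain (-1.38, adjusted p = 0.0185). That call was lost without any 1 of the Tet2-WT libraries or Tet2-KO replicate 1 (-1.65 to -1.10, adjusted p of up to 0.117). H2-Q4, a non-classical chain close in sequence to H2-D1, had 394.5, 306.9 and 246.7 normalized counts in Tet2-WT, 374.8 and 239.2 in Tet2-Mut, and 537.8 and 546.9 in Tet2-KO (0.80, adjusted p = 0.0834). It is named because reads may be shared between these genes, and was chosen after its values were seen. By limma, 0 of the 17 passed in each of the other comparisons (2 unadjusted p under 0.05 in each; 1 call in each by DESeq2 and 0 by edgeR). The 15 constitutive 20S proteasome subunits had 0 calls in each comparison by limma, edgeR and DESeq2. An unadjusted p under 0.05 was reached by 0 of them with limma, while in Tet2-Mut against Tet2-WT edgeR gave 3 and DESeq2 1, and in Tet2-KO against Tet2-Mut each gave 1. Their medians were 0.01 in Tet2-KO and 0.09 in Tet2-Mut against Tet2-WT, with all 15 differences positive in Tet2-Mut.

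Of 21 transcription factors that bind class I promoters, 3 were higher in Tet2-KO than in Tet2-Mut and 1 was lower. Irf1, an interferon regulatory factor, was 1.19 higher in Tet2-KO (adjusted p = 0.0175), and the NF-kappa B proteins Relb (0.85, adjusted p = 0.00495) and Nfkb2 (0.50, adjusted p = 0.0347) were higher as well. Rfxank, a subunit of the RFX complex and another gene of chromosome 8, was lower (-0.61, adjusted p = 0.0266). Irf1 had 1701, 1562 and 1596 normalized counts in Tet2-WT, 1323 and 725.5 in Tet2-Mut, and 2133 and 2332 in Tet2-KO. By group mean, Tet2-Mut was lowest and Tet2-KO highest, an order shared with H2-K1, Tapbp, Tap1, Tap2 and Psmb8. For H2-K1 (-0.02) and Tap1 (-0.08) Tet2-Mut was nearly level with Tet2-WT. The Tet2-Mut and Tet2-WT libraries overlapped for H2-K1, Tap1 and Psmb8. The members B2m, H2-D1, Psmb9, Psmb10 and Nlrc5 had other orders. The share of all genes with the order of Irf1 is not given here, so the order describes these means alone. On leaving out 1 library Relb was called in 7 of 7 fits and Irf1 in 5, with the call lost without Tet2-KO replicate 1 or 2 (0.75 to 1.62, adjusted p of up to 0.0703). Nfkb2 was called in 2 and Rfxank in 1 of 7 (0.39 to 0.61 and -0.70 to -0.52). In Tet2-Mut against Tet2-WT, 0 of the 21 passed by limma (6 at an unadjusted p under 0.05) and by edgeR, and 3 were lower by DESeq2. A further list held 13 genes of interferon and TNF signalling, namely receptors, their kinases and the suppressors of cytokine signalling Socs1 and Socs3. Of these 13, the suppressor Socs3 (-0.49) and the kinase Tyk2 (-0.54) were lower in Tet2-KO than in Tet2-WT and 0 were higher. Both were called in 3 of the 7 fits without 1 library, and not without any Tet2-WT library or Tet2-KO replicate 1 (adjusted p of up to 0.0691 and 0.212).

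Interferon-stimulated genes outside the class I pathway were higher in Tet2-KO than in Tet2-Mut for 7 of 27 and lower for 0, with a median of 0.52. Gbp2, a guanylate-binding protein, had 347.9, 244.8 and 238.4 normalized counts in Tet2-WT, 175.1 and 77.2 in Tet2-Mut, and 1608 and 1139 in Tet2-KO. It was the only one of the list called in Tet2-KO against Tet2-WT (2.31, SE 0.33, limma adjusted p = 0.0098), with a list median of 0.37. In Tet2-Mut against Tet2-WT, Gbp3 (-2.20), Trim25 (-0.37) and Xaf1 (-2.02) were lower, and Ifitm3 (0.32) and Samd9l (1.04) were higher, with a median of -0.33. These 5 calls were lost without any 1 of the Tet2-WT libraries or Tet2-Mut replicate 2 (adjusted p of up to 0.203). The 7 genes higher than in Tet2-Mut numbered 2 to 4 without any 1 of the Tet2-WT or Tet2-KO libraries or Tet2-Mut replicate 2, and 9 without Tet2-Mut replicate 1. The call of Gbp2 against Tet2-WT was lost when Tet2-WT replicate 2, Tet2-WT replicate 3 or Tet2-KO replicate 1 was left out (2.06 to 2.56, adjusted p of up to 0.0845), and Gbp2 against Tet2-Mut was called in 7 of 7 fits. The direction of this list was already known from these libraries when it was written down, so it is no separate evidence.

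Fibroblast and primitive streak markers had raised medians in Tet2-KO, as the members did, while in Tet2-Mut the medians of these lists and the members differed. Fibroblasts, the cells of the feeder layer, express class I genes, and 9 of 24 measured fibroblast markers were higher in Tet2-KO than in Tet2-WT and 0 were lower, with a median of 1.30. The summed level of the 24 was 15258 to 15738 normalized counts in Tet2-WT, 15960 to 16169 in Tet2-Mut, and 21537 to 31375 in Tet2-KO. A large part of this sum was Sparc, with 8114 to 8691 in Tet2-WT, 6499 and 8136 in Tet2-Mut, and 9833 and 9301 in Tet2-KO. In Tet2-Mut against Tet2-WT, 21 of the 24 differences were positive and 3 negative, with a median of 0.44 and 0 calls. Of the defining markers, Col1a1 had 782.3, 692.9 and 732.9 normalized counts in Tet2-WT, 1137 and 688.8 in Tet2-Mut, and 2123 and 1444 in Tet2-KO, and none of Col1a1, Col1a2, Col3a1 and Postn was at 0 in any library. Dcn, Lum and Fap were not analysed here. The median deviation of the 10 members was 1.06 in Tet2-KO replicate 1 and 0.42 in replicate 2, beside 1.58 and 0.92 for the fibroblast markers. In the Tet2-Mut clones the members stood at -0.02 and -0.04, beside 0.64 and 0.24. Of 12 primitive streak and mesoderm markers, 6 were higher in Tet2-KO than in Tet2-WT and 0 were lower, among them T (4.62, adjusted p = 0.00522), with medians of 1.93 and 1.77 in the Tet2-KO clones. In Tet2-Mut against Tet2-WT, 0 of the 12 were higher and Eomes (-0.82) and Hand1 (-2.63) were lower, with medians of 0.64 and -0.45 in the Tet2-Mut clones. Both calls were lost without Tet2-WT replicate 1 or 2, and that of Eomes also without Tet2-WT replicate 3 or Tet2-Mut replicate 2 (adjusted p of up to 0.168 for Eomes and 0.106 for Hand1). The 9 fibroblast markers became 1, 2 and 0 without Tet2-WT replicate 1, 2 and 3 (18 with an unadjusted limma p under 0.05 beside the 0), 1 without Tet2-KO replicate 1, and 16 and 15 without Tet2-Mut replicate 1 and 2. The 6 streak markers became 3, 2 and 2 without those Tet2-WT libraries and 1 without Tet2-KO replicate 1. T was called in 7 of 7 fits. The part of either cell type in the class I values was not tested. In bulk RNA, more cells of a type and more RNA per cell cannot be told apart.

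**Figure D5:**
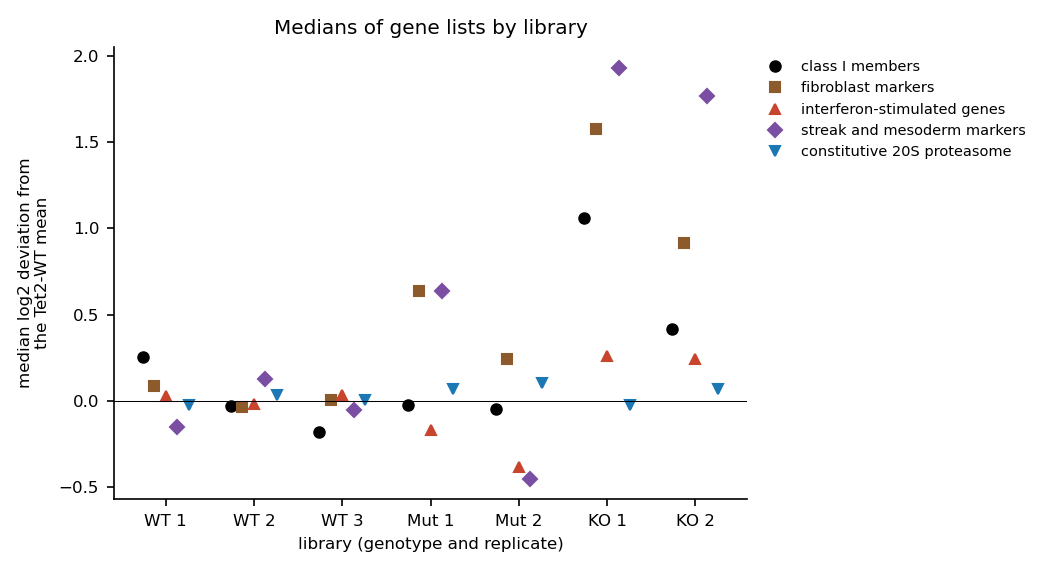
Median log2 deviation from the Tet2-WT mean (vertical axis) in each library for the 10 class I members and 4 gene lists. The members stand at 1.06 and 0.42 in the Tet2-KO clones, where fibroblast markers stand at 1.58 and 0.92 and streak and mesoderm markers at 1.93 and 1.77, while the constitutive 20S proteasome subunits stay within -0.02 to 0.10 in all libraries.

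Lists of other cell types and of ESC markers had 1 or 2 calls each in Tet2-KO against Tet2-WT. Of 7 blood and immune markers, 0 were higher and Cd68 was lower in Tet2-KO than in Tet2-WT (-0.86), and Ptprc, Itgam, Nkg7 and Tyrobp were not analysed here. Of 5 endothelial markers, 0 were higher and Pecam1 was lower (-0.75). Of 14 ESC markers, Lin28a was higher (0.73) and Tbx3 lower (-0.87). All 4 calls were lost without any 1 of the Tet2-WT libraries, and those of Cd68, Pecam1 and Lin28a also without Tet2-KO replicate 1 (adjusted p of up to 0.224, 0.109 and 0.0871, and 0.0578 for Tbx3). In Tet2-Mut against Tet2-WT, Cd68 (-0.89), Pecam1 (-0.58), Tbx3 (-1.17) and Nanog were lower and 0 genes of the 3 lists were higher. Without Tet2-WT replicate 1 or 2 each of these 4 calls was lost, and those of Cd68, Pecam1 and Nanog were also lost without Tet2-WT replicate 3 or 1 of the Tet2-Mut clones (replicate 1 for Cd68 and replicate 2 for the others; adjusted p of up to 0.211). In Tet2-KO against Tet2-Mut, Lin28a was higher (0.52, adjusted p = 0.0381) and no other gene of these lists passed; its call was lost without any 1 of the Tet2-WT libraries, Tet2-Mut replicate 2 or Tet2-KO replicate 1 (adjusted p of up to 0.175).

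Over the 7 libraries, the gene whose profile was most like the mean standardized profile of the 10 members was Eif4g3, a translation initiation factor, with a Pearson correlation of 0.996 among 12391 genes with a mean of at least 50. It ranged from 7899 normalized counts in Tet2-WT replicate 3 to 9808 in Tet2-KO replicate 1. Golga2 (0.984), Cdh10 (0.981), Rlim (0.980) and Zmynd8 (0.979) came next. With 7 libraries and so many genes searched, values this high describe likeness and carry no test.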

How the data were processed

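The table the authors deposited gives, for each gene and library, a read count scaled by that library's size factor, a linear signal. Trim Galore 0.6.5, STAR 2.7.3a, DESeq2 and featureCounts are named in the submitters' processing notes, as is build mm10, while annotation and strand setting are not given. Dividing by each library's step recovered whole reads for 100% of values (tolerance 0.01), and every gene had at least 71 reads in all. Between 72.1% and 75.2% of low values were even, so mates may be counted separately. A floor of 3 reads equals 2.5 to 3.54 normalized counts.

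Group means were fitted over 7 libraries with limma 3.58.1 (R 4.3.3) on log2(normalized count + 1), which understates changes of low genes, for 17338 genes with at least 10 in at least 2 libraries. The prior variance followed the mean (4 residual and 5.03 prior degrees of freedom), and p-values are two-sided and Benjamini-Hochberg adjusted over all genes at 0.05. The p-values measure 1 pooled spread between libraries, which are clones in the altered genotypes and lines or cultures in Tet2-WT. Steps were tested on simulated data. Alternatives included edgeR 4.0.16 and DESeq2 1.42.0 on recovered reads.

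The members and gene lists were chosen with earlier results of these data known. Named genes are the members, Tet2, constitutive partner subunits, up to 3 called genes per list with the smallest p, nearest neighbours and the 5 most alike profiles; Nfkb2, Xaf1, Samd9l, H2-Q4, Col1a1, Pou5f1 and Nanog beyond this rule were chosen after their values were seen. Transcript lengths were not used, so subunit ratios are relative to the Tet2-WT mean. Positions are RefSeq's for GRCm38.p6 (92.9% of genes matched). The 3 bisulfite and 18 CUT&Tag samples were not analysed here. A result of a gene list is not reported here.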

Additional observations from a re-analysis of the deposited data

How the results depend on the processing

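By limma, 6 class I members were called in Tet2-KO against Tet2-Mut, 4 in Tet2-KO against Tet2-WT and 1 in Tet2-Mut against Tet2-WT, and these same members were called with pseudocounts of 0.5 and 10, without a filter, with a filter at 50, with upper quartile scaling and with size factors from genes outside chromosomes 8 and 17. On recovered reads, edgeR and DESeq2 called 5 and 6 in Tet2-KO against Tet2-WT, 1 and 1 in Tet2-Mut against Tet2-WT, and 6 and 6 in Tet2-KO against Tet2-Mut. Over all genes, DESeq2 also called more than limma in each comparison, as given below. The totals of edgeR are not given here, so these member counts alone show no gain particular to the members. With no trend in limma's prior variance, 0, 0 and 0 members passed in these 3 comparisons (6, 2 and 6 with an unadjusted p under 0.05). With only the 2 groups compared, 0 passed in Tet2-KO against Tet2-Mut (7 unadjusted). Leaving out 1 library gave 0 to 6 members in Tet2-KO against Tet2-WT, 0 to 3 in Tet2-Mut against Tet2-WT and 2 to 6 in Tet2-KO against Tet2-Mut. In Tet2-KO against Tet2-WT, 0 remained by limma without Tet2-WT replicate 2 or Tet2-KO replicate 1 (6 and 4 unadjusted) and 1 without Tet2-WT replicate 1 or 3. In Tet2-Mut against Tet2-WT, 0 remained without any Tet2-WT library or without Tet2-Mut replicate 2 (2, 1, 3 and 1 unadjusted), and 3 were called without Tet2-Mut replicate 1. In Tet2-KO against Tet2-Mut, 3 remained without Tet2-WT replicate 1 and 2 without Tet2-WT replicate 2, Tet2-Mut replicate 2 or Tet2-KO replicate 1. The cause was not tested.

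With the replicate number as a block, the replicate block left 0 members in Tet2-KO against Tet2-WT, 0 in Tet2-Mut against Tet2-WT and 3 in Tet2-KO against Tet2-Mut by limma (6, 4 and 7 unadjusted). Tet2-WT replicate 3 has a number of its own and drops out of that fit. Deviations from the group means of libraries that share a number correlated between -0.073 and 0.087 over the genes tested. In a group of 2 clones the deviations mirror each other, and a batch could act on some genes alone. These correlations therefore cannot tell whether the numbers mark a shared batch.

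Of 537 fold changes of members under the alternatives, 452 kept their direction and side of the threshold, 63 lost and 13 gained a call, and 9 turned sign, all of them uncalled and all on leaving out 1 library. Over the libraries left out, Nlrc5 ranged from -0.0919 (without Tet2-KO replicate 1) to 1.40 in Tet2-KO against Tet2-WT. In Tet2-Mut against Tet2-WT, H2-K1 ranged from -0.124 to 0.0304 (positive without Tet2-WT replicate 1 or 2), Tap1 from -0.226 to 0.112 (positive without Tet2-WT replicate 1), H2-D1 from -0.105 to 0.096 (negative without Tet2-WT replicate 2 or Tet2-Mut replicate 1) and Psmb10 from -0.0523 (without Tet2-Mut replicate 2) to 0.493. In Tet2-KO against Tet2-Mut, Psmb9 ranged from -0.115 to 0.0515 (positive without Tet2-Mut replicate 1) and Nlrc5 from -1.20 to 0.298 (positive without Tet2-KO replicate 2). The chromosome 8 medians, a check added after seeing the data, stayed within -0.28 to -0.23, 0.26 to 0.29 and -0.54 to -0.49.

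Over all genes, the counts called were 1025, 594 and 1074 in Tet2-KO against Tet2-WT, Tet2-Mut against Tet2-WT and Tet2-KO against Tet2-Mut. They were 1992, 1555 and 1808 with DESeq2, 19, 0 and 10 without the trend (3018 unadjusted beside the 0), 15, 7 and 467 with the replicate block, 2159, 900 and 0 with only the 2 groups compared (2357 unadjusted beside the 0), and 85 to 2158, 6 to 2198 and 530 to 2679 on leaving out 1 library.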

Other observations

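The class II pathway and Polycomb repressive complex 2 (PRC2), which places a repressive mark on histone H3, had few calls. Of 7 tested class II genes, 0 were higher and 1 was lower in Tet2-KO than in Tet2-WT, Ifi30, a lysosomal reductase (-0.73, limma adjusted p = 0.0207), which lies on chromosome 8. By limma, 0 of the 7 passed in Tet2-Mut against Tet2-WT and 0 in Tet2-KO against Tet2-Mut, with 1 and 2 at an unadjusted p under 0.05, 0 and 0 calls by edgeR and 1 and 1 by DESeq2. The list of 11 Polycomb genes held PRC2 subunits and Pcgf1, which belongs to another Polycomb complex. Of these 11, Suz12 was lower than in Tet2-WT in Tet2-KO (-0.34, adjusted p = 0.0308) and in Tet2-Mut (-0.44, adjusted p = 0.0227), with the same Tet2-WT libraries in both comparisons. In Tet2-Mut, Phf19 was lower (-1.02, adjusted p = 0.00631) and Eed was higher (0.41, adjusted p = 0.0368). Phf19 had 2823, 2759 and 2644 normalized counts in Tet2-WT, 1323 and 1386 in Tet2-Mut, and 2266 and 2885 in Tet2-KO, so both Tet2-Mut clones lay below all other libraries, as they did for Tapbp. Without any 1 of the Tet2-WT libraries the calls of Ifi30, Suz12 and Eed were lost, as were those in Tet2-KO without Tet2-KO replicate 1 and those of Suz12 and Eed in Tet2-Mut without Tet2-Mut replicate 2 (adjusted p of up to 0.181). Phf19 lost its call against Tet2-WT without Tet2-WT replicate 1 or 2 (adjusted p of up to 0.0701).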
